A study of Mus musculus with 10 samples.

Results

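The 30 genes described here encode 18 enzymes of cholesterol synthesis, 5 proteins that sense sterols and control those enzymes, 2 proteins that move or store cholesterol, and 5 genes of the liver X receptor (LXR) and efflux arm. They were chosen by name, with no measured value in the rule, and all 30 were among the 26227 genes represented in the files. In 29 of them RPKM (read counts scaled to transcript size and library size) reached 1 in at least 2 libraries, so that 29 of the 13004 genes tested were members. Nr1h3 was the member left untested.

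Bulk RNA was sequenced from a mouse cell line of C57BL/6 origin, ER-Hoxa9-Lys-GFP, which was kept in RPMI, serum and SCF (stem cell factor) conditioned medium. In such lines an estrogen receptor domain joined to Hoxa9 makes this homeobox factor depend on estradiol (E2), and active Hoxa9 holds the cells at the stage of a myeloid progenitor. The 10 libraries formed 5 groups of 2, all of the same line. Untreated cells kept E2. The 24h, 40h and 72h groups spent 24, 40 or 72 h without E2 and then 96, 80 or 48 h with E2 again. The 120h group spent 120 h without E2 and received none back, so all withdrawn cultures were followed for the same time while the time with E2 restored differed between them. The question behind the design is for how long E2 can be withheld before its return no longer restores the starting state. No label states that the libraries of a group are separate cultures, so the p-values below reflect the spread between libraries, some or all of it possibly technical.

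Cholesterol is built from acetyl-CoA, first to mevalonate and the isoprenoid farnesyl diphosphate, then through squalene and lanosterol to cholesterol. When membranes of the endoplasmic reticulum lack sterol, Scap escorts the precursors of the SREBP transcription factors (Srebf1 and Srebf2) to the Golgi, where they are cleaved and go on to switch on the synthesis genes, while Insig1 and Insig2 hold Scap back when sterol is plentiful. When sterols accumulate, their oxidized forms activate LXR, whose textbook targets in mouse macrophages include the efflux pumps Abca1 and Abcg1 and the ubiquitin ligase Mylip, which removes the LDL receptor.

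Promoter windows were available for 25 of the 30 genes, from RefSeq on GRCm38.p6, each of 300 bases, 250 before the annotated start and 50 from it on. Both strands were searched for 3 motifs, the sterol regulatory element TCACNCCAC that SREBP binds, the CCAAT box (CCAAT) that NF-Y binds and the GC box (GGGCGG) that Sp1 binds. None of the 3 lies inside another, though their ends can overlap, and a gene counted when any of its windows held the motif. Among the 15 synthesis enzymes with a window, 14 held a CCAAT box (93.3%) and 14 a GC box (93.3%). The shares over the 8860 tested genes with a window were 43.3% for the CCAAT box and 68.1% for the GC box. Among the other 10 members with a window, 6 held a CCAAT box and 8 a GC box. The sterol regulatory element in these letters was in 1 of the 15 enzymes, Hmgcs1, and in 1.43% of tested genes. These matches describe letters, not occupied sites.

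The windows of 4 enzymes and of 1 efflux gene are shown because their transcripts took different courses, with Hmgcs1, Mvk and Cyp51 falling without E2, Sc5d rising and the pump gene Abca1 rising. Each reads 5′ to 3′ on the strand of the gene, with motif matches in capitals (the CCAAT box read on the other strand is ATTGG and the GC box CCGCCC). They lie at chr13:119690101-119690400 on the plus strand (Hmgcs1), chr5:114444019-114444318 on the plus strand (Mvk), chr5:4104648-4104947 on the minus strand (Cyp51), chr9:42264251-42264550 on the minus strand (Sc5d) and chr4:53159846-53160145 on the minus strand (Abca1). The Hmgcs1 window held the sterol regulatory element at position -137 from the start, between CCAAT boxes at -176 and -45. The Mvk window held 5 CCAAT boxes, and those of Cyp51 and Sc5d held 1 each. The Abca1 window held none.
Hmgcs1: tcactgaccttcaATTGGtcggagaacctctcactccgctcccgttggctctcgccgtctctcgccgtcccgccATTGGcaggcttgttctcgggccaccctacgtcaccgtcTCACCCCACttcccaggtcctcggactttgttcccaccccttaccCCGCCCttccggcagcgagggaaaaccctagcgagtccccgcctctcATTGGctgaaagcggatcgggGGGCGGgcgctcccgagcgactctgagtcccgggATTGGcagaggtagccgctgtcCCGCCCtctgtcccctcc
Mvk: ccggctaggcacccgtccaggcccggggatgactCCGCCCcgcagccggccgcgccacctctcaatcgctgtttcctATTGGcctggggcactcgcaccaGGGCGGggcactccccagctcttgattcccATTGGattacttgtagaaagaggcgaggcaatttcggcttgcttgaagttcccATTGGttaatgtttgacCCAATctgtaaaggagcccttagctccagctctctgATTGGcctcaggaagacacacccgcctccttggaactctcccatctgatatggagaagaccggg
Cyp51: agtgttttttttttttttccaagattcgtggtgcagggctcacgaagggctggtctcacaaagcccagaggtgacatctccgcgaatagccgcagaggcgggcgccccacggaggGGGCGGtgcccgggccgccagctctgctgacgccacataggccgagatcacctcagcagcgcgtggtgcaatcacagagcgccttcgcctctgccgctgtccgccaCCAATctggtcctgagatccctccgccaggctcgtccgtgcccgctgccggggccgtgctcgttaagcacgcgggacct
Sc5d: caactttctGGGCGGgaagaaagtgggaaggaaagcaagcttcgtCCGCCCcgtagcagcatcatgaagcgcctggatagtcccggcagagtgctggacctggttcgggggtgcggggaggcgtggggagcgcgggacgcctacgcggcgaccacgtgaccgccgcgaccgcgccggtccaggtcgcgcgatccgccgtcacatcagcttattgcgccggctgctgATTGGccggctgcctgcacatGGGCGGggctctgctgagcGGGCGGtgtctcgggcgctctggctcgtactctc
Abca1: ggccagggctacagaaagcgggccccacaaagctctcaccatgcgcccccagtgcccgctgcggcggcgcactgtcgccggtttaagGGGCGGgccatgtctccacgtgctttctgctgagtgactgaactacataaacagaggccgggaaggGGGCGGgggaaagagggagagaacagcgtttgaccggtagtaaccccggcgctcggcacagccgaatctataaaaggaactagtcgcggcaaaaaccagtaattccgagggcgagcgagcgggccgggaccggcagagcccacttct

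The RPKM denominators recovered from the files were 173620000 to 204390000 reads per library, so that a single read on 2 kb of transcript added 0.00245 to 0.00288 RPKM and counting error was small for every tested member. The untreated libraries carried the progenitor markers of the label, with summed RPKM over 6 progenitor genes of 1561 and 1533, against 4.2 and 3.14 over 8 neutrophil genes. In the 120h libraries these sums were 107 and 75.7 for progenitor genes and 21241 and 21059 for neutrophil genes, with 1492 and 1348 over 8 monocyte and macrophage genes (8.75 and 8.81 untreated). In the 72h libraries neutrophil genes summed to 398 and 650 and progenitor genes to 625 and 665. The 4 erythroid genes summed to at most 1.25 in any library. Mast cell and basophil genes went from 174 and 177 untreated to 14.1 and 10 at 120h, and lymphoid genes, almost all of it from Igll1 and Thy1, from 188 and 168 to 1.12 and 0.334. The median log2 fold change over all tested genes was -0.36 in the 120h group against untreated and between -0.02 and 0.02 in the 24h, 40h and 72h groups against untreated. In bulk RNA fewer cells of a type and less RNA per cell cannot be told apart.

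Fold changes are on the scale of log2(RPKM + 1), with standard errors (SE) and adjusted p-values from limma with Benjamini-Hochberg (BH) adjustment over the 13004 genes, and a gene was called at an adjusted p under 0.05. Without E2 for 120 h most synthesis and sensing genes fell, while the storage gene Soat1 and the pump genes Abca1 and Abcg1 rose. Against untreated cells 18 of the 29 tested members fell and 4 rose, where 52.7% of all tested genes fell and 27.5% rose. In the 72h group 8 members fell and 5 rose (22.3% and 21.6% of all genes), so the members' share of calls at 72h was close to that of all genes. In the 40h group 1 rose and 0 fell by limma (0.93% and 3.35% of all genes). At an unadjusted p under 0.05 there were 4 higher and 4 lower members at 40h and 2428 of the 13004 genes in either direction, and limma voom on recovered reads called 2 higher and 0 lower (1.07% and 3.18% of all genes). In the 24h group limma called 0 members higher and 0 lower, as it did over all genes (0% and 0%), also with voom, and 0 members had an unadjusted p under 0.05. Between neighbouring groups, 72h against 40h gave 3 higher and 6 lower members (13.9% and 13.8% of all genes), and 120h against 72h gave 6 higher and 19 lower (26.4% and 51%).

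**Figure D1:**
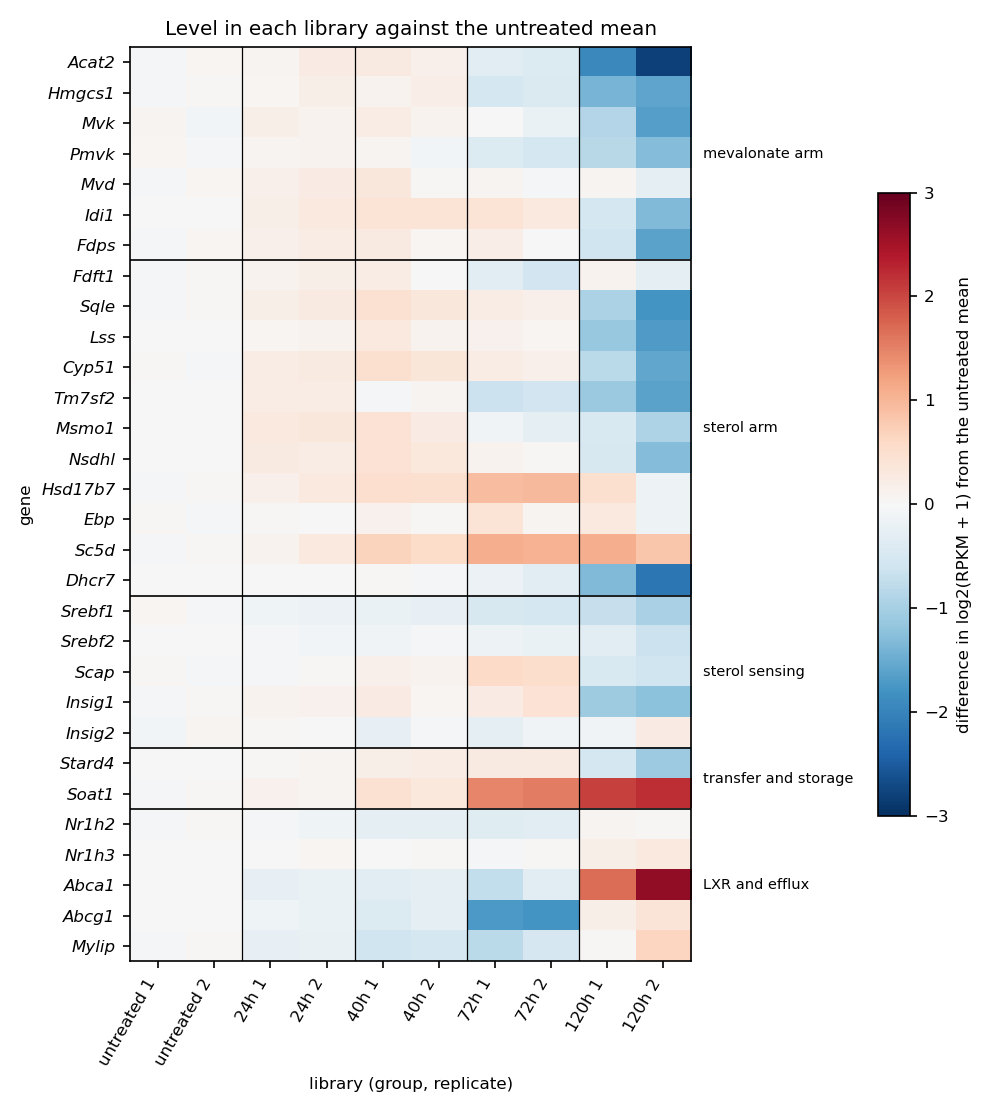
Heat map of the 30 members (rows, ordered by role) in the 10 libraries (columns), coloured by the difference in log2(RPKM + 1) from the mean of the untreated libraries. Most enzymes are blue in both 120h columns (Mvd, Fdft1, Hsd17b7, Ebp and Sc5d are not), Sc5d and Soat1 are red from 72h on, and Abcg1 is blue at 72h and pale red at 120h.

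The mevalonate arm fell in the 120h group in 6 of its 7 members, where 52.7% of all tested genes fell. Its median log2 fold change was -1.10, against -0.36 over all genes. Acat2, the cytosolic thiolase that joins acetyl-CoA units at the entry of the pathway, had 33.4 and 36.8 RPKM in untreated cells, 37 and 41.9 at 24h, 42.7 and 39.2 at 40h, 27.4 and 26 at 72h, and 8.38 and 4.17 at 120h. Both 120h libraries lay below all others, and the fall was 5.59-fold (log2 fold change -2.37, SE 0.23, adjusted p = 2.49e-05), the largest among the members. Hmgcs1, which makes HMG-CoA in the step before mevalonate, had 89.3 and 95.2 RPKM untreated, 95.5 and 105 at 24h, 100 and 106 at 40h, 64 and 67.7 at 72h, and 34.5 and 30.2 at 120h. Its 120h libraries lay close together, and against untreated it fell by 0.48 on the log2 scale at 72h (SE 0.09, adjusted p = 0.0042) and by 1.49 at 120h (SE 0.09, adjusted p = 2.16e-06). Its gene lies on chromosome 13 from 119690379 to 119708260 (GRCm38, GENCODE M21, plus strand).

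The kinases and isomerase that follow had smaller log2 fold changes at 120h, which were not tested against those of Acat2 and Hmgcs1. Mvk, mevalonate kinase, went from 30.3 and 27.2 RPKM untreated to 15.1 and 8.43 at 120h (log2 fold change -1.27, SE 0.21, adjusted p = 0.000646). Pmvk, which adds the next phosphate, went from 30.7 and 28.6 to 16.2 and 11.4 (log2 fold change -1.07, SE 0.14, adjusted p = 0.000164). In both genes the groups did not overlap, and Pmvk also fell at 72h, to 22 and 20.1 RPKM. That 72h call (log2 fold change -0.48, adjusted p = 0.0276) had adjusted p-values of 0.0573 to 0.137 when any 1 of the untreated or 72h libraries was left out and 0.0666 with no filter. Idi1, the isomerase that interconverts the isoprenoid building blocks, had 22 and 21.4 RPKM untreated, 24.6 and 26.9 at 24h, 29.4 and 29.1 at 40h, 29.2 and 26.9 at 72h, and 14.7 and 8.01 at 120h. All 6 libraries that had E2 returned were above both untreated libraries, with no call (at 72h log2 fold change 0.35, SE 0.21, adjusted p = 0.211), and at 120h the gene fell (log2 fold change -0.93, SE 0.21, adjusted p = 0.00351). In a fit without the 120h group the rises at 40h (0.41, adjusted p = 0.00613) and 72h (0.35, 0.00163) were called. Fdps, farnesyl diphosphate synthase and the most abundant member per length in every library, went from 220 and 236 RPKM to 151 and 74.1 (log2 fold change -1.10, SE 0.28, adjusted p = 0.0059). Mvd, the decarboxylase between Pmvk and Idi1, was the member of this arm that was called nowhere, with 14.4 and 15.9 RPKM untreated and 16 and 12.1 at 120h, except that without 120h replicate 1 it was called lower against 72h (-0.33, adjusted p = 0.0472).

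The sterol arm, from squalene on, fell in 7 of its 11 members at 120h and rose in 1 (52.7% and 27.5% of all tested genes). Its median log2 fold change was -0.90, against -0.36 over all genes. Sqle, squalene epoxidase, a rate-setting step, had 48.8 and 50.8 RPKM untreated, 56.5 and 60 at 24h, 68.5 and 63.7 at 40h, 57.8 and 55.6 at 72h, and 25.5 and 13.6 at 120h. Its 6 libraries with E2 returned were all above untreated and its 120h libraries below all others, and the fall at 120h was 2.55-fold (log2 fold change -1.37, SE 0.23, adjusted p = 0.000552). Cyp51, the lanosterol demethylase, went from 38.2 and 36.9 RPKM untreated to 44 and 45.3 at 24h, 52.8 and 48.4 at 40h, 44 and 42.1 at 72h, and 20.9 and 12 at 120h (log2 fold change at 120h -1.19, SE 0.20, adjusted p = 0.000605). Lss, which closes the rings of lanosterol, went from 15 and 14.6 to 6.13 and 3.86 RPKM (log2 fold change -1.42, SE 0.16, adjusted p = 5.69e-05). Dhcr7, the reductase that makes cholesterol from 7-dehydrocholesterol, had 35.1 and 36 RPKM untreated, 36.1 and 35.5 at 24h, 36.6 and 34.3 at 40h, 31.4 and 28.4 at 72h, and 13.5 and 7.1 at 120h. It stayed between 34.3 and 36.6 RPKM through 40h and fell 3.46-fold at 120h (log2 fold change -1.76, SE 0.22, adjusted p = 0.000112), the largest fall of the sterol arm.

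Tm7sf2, a sterol C14 reductase, fell both at 72h (log2 fold change -0.60, SE 0.14, adjusted p = 0.00978) and at 120h (-1.36, SE 0.14, adjusted p = 3.53e-05). Its RPKM was 7.32 and 7.29 untreated, 4.34 and 4.61 at 72h, and 2.82 and 1.74 at 120h, and without untreated replicate 1 or 2 the 72h call had an adjusted p of 0.054 or 0.0529. Msmo1 and Nsdhl, which remove the methyl groups at carbon 4 together with Hsd17b7, fell at 120h with log2 fold changes of -0.69 (SE 0.15, adjusted p = 0.00247) and -0.90 (SE 0.21, adjusted p = 0.00449). Msmo1 went from 51 and 51.9 to 37.3 and 26.6 RPKM and Nsdhl from 25.1 and 25.2 to 17.6 and 9.58.

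Sc5d went the other way at 120h, while Hsd17b7 was called higher at 72h and not at 120h. Sc5d, the desaturase that forms the last intermediate before Dhcr7 acts, had 16.4 and 17.2 RPKM untreated, 18 and 20.7 at 24h, 27.4 and 24.9 at 40h, 36.8 and 35.7 at 72h, and 36.9 and 30.7 at 120h. It was above both untreated libraries in every other library, and it rose at 40h (log2 fold change 0.61, SE 0.11, adjusted p = 0.0203), at 72h (1.06, SE 0.11, adjusted p = 0.000116) and at 120h (0.96, SE 0.11, adjusted p = 5.28e-05). It was the 1 member called at 40h, and that call had adjusted p-values of 0.0742 to 0.195 when any 1 of the untreated or 40h libraries was left out. Hsd17b7, a ketoreductase, had 2.88 and 3.1 RPKM untreated, 3.44 and 3.86 at 24h, 4.62 and 4.54 at 40h, 6.56 and 6.8 at 72h, and 4.56 and 2.57 at 120h. It rose 2.23-fold at 72h (log2 fold change 0.94, SE 0.18, adjusted p = 0.00347) and fell again between 72h and 120h (-0.79, SE 0.18, adjusted p = 0.00372), with a 120h range that held the untreated values. Without 120h replicate 2 it was called higher at 120h against untreated (0.48, adjusted p = 0.0015), as it was with median-of-ratios scaling (0.50, 0.0302), under which the fall from 72h to 120h was not called (-0.43, 0.0597). In GRCm38 Sc5d lies on chromosome 9 from 42251595 to 42264256 and Hsd17b7 on chromosome 1 from 169949535 to 169969241.

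Ebp, the sterol isomerase, was called in no comparison, with 18.3 and 17.3 RPKM untreated and 22.2 and 15.9 at 120h, although without 120h replicate 2 or replicate 1 it passed as higher against untreated (0.30, adjusted p = 0.0468) or lower against 72h (-0.40, adjusted p = 0.0159), and median-of-ratios scaling called it higher against untreated (0.50, 0.019). Fdft1, squalene synthase at the entry of the sterol arm, had 20.7 and 21.8 RPKM untreated, 16.5 and 14 at 72h, and 23 and 17.5 at 120h. It fell at 72h (log2 fold change -0.46, SE 0.14, adjusted p = 0.029), a call that had adjusted p-values of 0.089, 0.134 and 0.168 without untreated replicate 1, untreated replicate 2 and 72h replicate 2 and of 0.0682 with no filter. At 120h its range held the untreated values (-0.08, SE 0.14, adjusted p = 0.627), while median-of-ratios scaling called it higher (0.35, adjusted p = 0.0482). Of its transcript 27% overlaps exons of Ctsb, a lysosomal protease gene on the opposite strand that went from 34.8 and 35.5 RPKM untreated to 63.2 and 68.7 at 72h and 420 and 363 at 120h. Whether counting used strand is not given in the sources used here, and the part of Ctsb reads in the Fdft1 value was not tested.

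**Figure D2:**
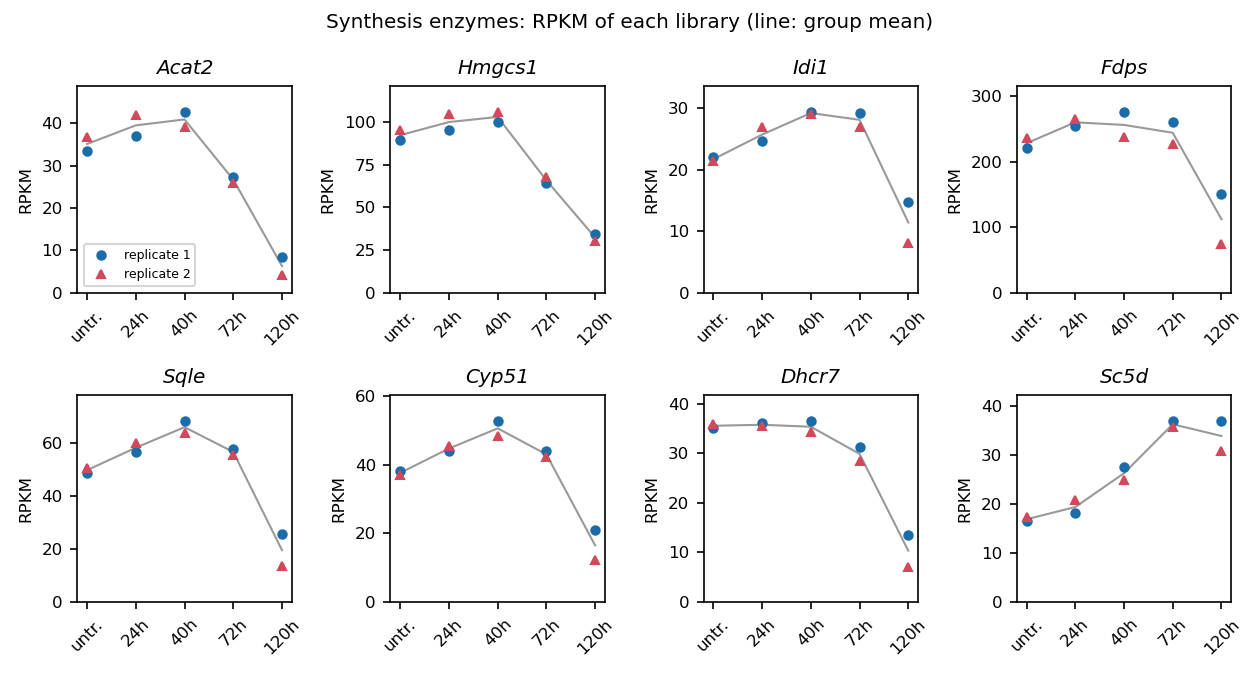
RPKM (vertical axes, from 0) of 8 synthesis enzymes in each library by group, with circles for replicate 1, triangles for replicate 2 and lines through the group means. Acat2, Hmgcs1, Idi1, Fdps, Sqle, Cyp51 and Dhcr7 have both 120h points below every other point, while Sc5d is at 30.7 to 36.9 RPKM in the 72h and 120h libraries against 16.4 and 17.2 in untreated ones.

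After the shortest withdrawal the enzymes lay slightly above untreated cells, with no call. In the 24h group all 18 enzymes had a log2 fold change above 0 (range 0.01 to 0.31, median 0.19, against a median of -0.02 over all genes), and in 16 of them both libraries were above both untreated ones, as in 16.9% of all tested genes (0% were called). The lowest p among the members, that of Msmo1, was 0.071 before adjustment, with 63 and 64.9 RPKM against 51 and 51.9 untreated. The summed RPKM of the 18 enzymes was 719 and 743 in untreated libraries, 809 and 847 at 24h, 897 and 817 at 40h, 760 and 697 at 72h, and 466 and 290 at 120h. The sums at 24h and 40h were thus above the untreated ones, those at 72h lay on both sides of them, and those at 120h were below all others. These comparisons share the 2 untreated libraries.

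At 40h the median over the enzymes was 0.20, with both libraries above both untreated ones in 12 of 18 and in 29.2% of all tested genes (0.93% were called). The 120h libraries differed most from each other (median absolute difference over all genes 0.25, against 0.06 to 0.12 in the other groups) and entered the shared estimate of the spread. In a fit without the 120h group, chosen after seeing the data, 9 members were called higher at 40h (5.2% of all genes in that fit) and 4 lower (9.74%). The 9 were Sc5d with Idi1 (log2 fold change 0.41, adjusted p = 0.00613), Sqle (0.40, 0.0058), Cyp51 (0.42, 0.00469), Msmo1 (0.34, 0.0251), Nsdhl (0.37, 0.00734), Hsd17b7 (0.48, 0.00675), Stard4 (0.19, 0.0421) and Soat1 (0.39, 0.0119). The 4 were Srebf1 (-0.23, 0.0353), Nr1h2 (-0.27, 0.0196), Abcg1 (-0.36, 0.0135) and Mylip (-0.55, 0.0122). At 72h the enzymes spread apart, with a median of 0.05 and a range from -0.60 (Tm7sf2) to 1.06 (Sc5d). Of the 18, 2 were higher and 4 lower (21.6% and 22.3% of all tested genes). In the fit without the 120h group 9 members were called higher at 72h (30% of all genes) and 12 lower (31.2%). Gained as higher were Idi1 (0.35, adjusted p = 0.00163), Sqle (0.18, 0.0293), Cyp51 (0.19, 0.0242) and Stard4 (0.26, 0.00253). Gained as lower were Acat2 (-0.38, 0.00397), Dhcr7 (-0.24, 0.0103), Srebf2 (-0.17, 0.0188) and Abca1 (-0.53, 0.00948).

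The change from 72h with E2 returned to 120h without it was a fall in 14 of the 18 enzymes and a rise in 1. Over all tested genes 51% fell and 26.4% rose. The median log2 fold change of the enzymes was -0.98, against -0.32 over all genes. With median-of-ratios scaling the falls of Pmvk (-0.17, adjusted p = 0.309), Msmo1 (-0.07, 0.688) and Hsd17b7 (-0.43, 0.0597) were no longer called, and that of Msmo1 was also lost without 72h replicate 1 (0.0798) or with only the 2 groups compared (0.0751). The 1 that rose was Fdft1 (0.38, SE 0.14, adjusted p = 0.0334), with adjusted p-values of 0.051 to 0.181 when untreated replicate 1 or 2, 24h replicate 1 or 2, 72h replicate 2 or 120h replicate 1 was left out, 0.0744 with no filter and 0.122 with only the 2 groups compared. Acat2 (-1.99), Sqle (-1.55), Lss (-1.52) and Dhcr7 (-1.51) had the largest falls, with adjusted p-values of 8.29e-05, 0.000299, 4.79e-05 and 0.000309. Sc5d was not called (36.8 and 35.7 RPKM against 36.9 and 30.7), though without 120h replicate 1 it was called lower (-0.23, adjusted p = 0.0482) and with median-of-ratios scaling higher (0.33, adjusted p = 0.0194). From 40h to 72h the fit without the 120h group, chosen after seeing the data, called more enzymes lower (24.7% of all genes). Added were Acat2 (-0.60, adjusted p = 0.000609), Nsdhl (-0.30, 0.0042), Cyp51 (-0.23, 0.0155), Dhcr7 (-0.24, 0.0155), Sqle (-0.22, 0.0192) and Mvk (-0.28, 0.0288). That fit also called Hsd17b7 higher (0.46, 0.00173), as were 22.8% of all genes. With all 10 libraries the falls from 40h to 72h were Hmgcs1 (-0.64, SE 0.09, adjusted p = 0.00163), Tm7sf2 (-0.63, 0.14, 0.0126), Fdft1 (-0.56, 0.14, 0.0188), Msmo1 (-0.54, 0.15, 0.0297) and Pmvk (-0.47, 0.14, 0.0416), given with their SE and adjusted p. Of these the Hmgcs1 call alone stood with each library left out, while Fdft1 lost its call without 40h replicate 1 or 72h replicate 2 (adjusted p = 0.135 or 0.126) and Tm7sf2 without any 1 of the 40h and 72h libraries (0.0504 to 0.0846). The adjusted p-values of Pmvk and Msmo1 were above 0.05 without any 1 of the untreated, 24h, 40h and 72h libraries (0.069 to 0.222 and 0.0536 to 0.184), and with no filter Pmvk (0.098), Msmo1 (0.0753) and Fdft1 (0.0509) lost theirs. The enzyme that rose from 40h to 72h was Sc5d (0.46, SE 0.11, adjusted p = 0.015), with adjusted p-values of 0.101, 0.0695 and 0.064 without 40h replicate 2, 72h replicate 1 and 72h replicate 2.

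The 2 libraries of the 120h group differed in the enzymes more than in other genes. Replicate 2 was lower than replicate 1 in 18 of 18 enzymes, by a median of -0.59 on the log2(RPKM + 1) scale and from -1.01 to -0.18. Over all tested genes the median difference was -0.05 and replicate 2 was lower in 56.0%. In the untreated pair replicate 2 was lower in 7 of 18, with a median of 0.03. The 120h libraries also differed in cell cycle markers. The summed RPKM of 6 of them (Mki67, Top2a, Ccnb1, Cdk1, Mcm7 and Pcna) was 809 and 810 untreated, 752 and 722 at 72h, and 410 and 239 at 120h. All 6 fell at 120h, as did 52.7% of all tested genes. Their median log2 fold change was -1.29, against -0.36 over all genes. The part of the cell cycle markers, and that of the neutrophil and monocyte markers, in the fall of the enzymes was not tested.

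With median-of-ratios scaling, which moved the median of all genes at 120h from -0.36 to 0.00 and the higher share of calls from 34.3% to 50.5%, 13 members were lower and 10 higher at 120h against untreated, where 38.6% of all genes were lower and 39.4% higher. Acat2, Hmgcs1, Mvk, Pmvk, Idi1, Sqle, Lss, Cyp51, Tm7sf2, Dhcr7, Srebf1, Insig1 and Stard4 were the 13. The calls of Fdps (-0.66, adjusted p = 0.0543), Msmo1 (-0.26, 0.138), Nsdhl (-0.48, 0.0684), Srebf2 (-0.05, 0.689) and Scap (-0.12, 0.179) were lost, and Fdft1 turned to higher (0.35, 0.0482). The falls of those 5 genes were thus called relative to library totals but not relative to the middle gene. Calls of higher were also gained by Hsd17b7 (0.50, 0.0302), Ebp (0.50, 0.019), Insig2 (0.46, 0.0129), Nr1h2 (0.50, 0.000338) and Mylip (0.71, 0.00877).

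**Figure D3:**
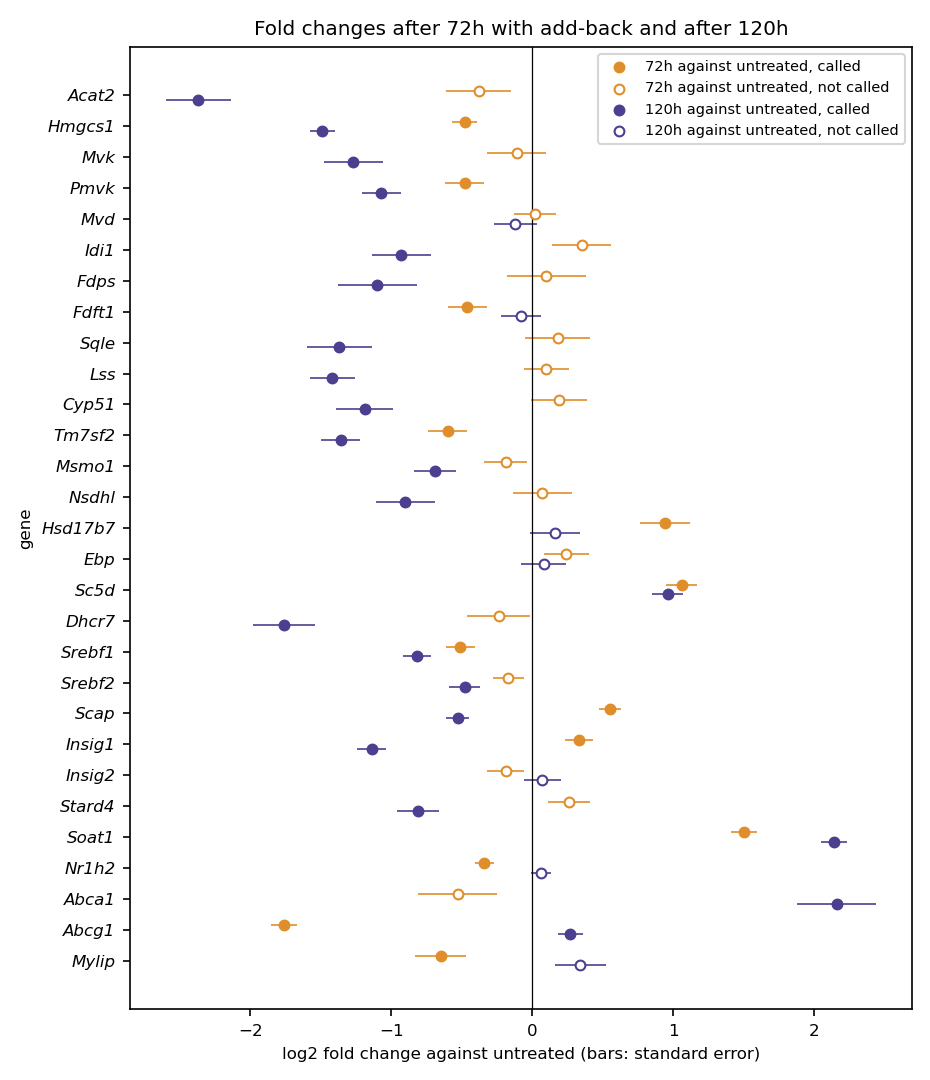
Log2 fold changes on the log2(RPKM + 1) scale (horizontal axis, bars are standard errors) of the 29 tested members for 72h (orange) and 120h (purple) against untreated, filled where the adjusted p was under 0.05. Most enzymes have purple points left of -0.5 and most orange points lie between -0.60 and 0.35, Scap and Insig1 have orange points right and purple points left of 0, and Abcg1 has the reverse.

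Among the sterol sensing genes, 4 of 5 fell at 120h, while 2 rose and 1 fell at 72h. Over all tested genes 52.7% fell at 120h, while 21.6% rose and 22.3% fell at 72h. Insig1, the retention factor that SREBP itself switches on, had 61.3 and 64 RPKM untreated, 67.3 and 69 at 24h, 74.4 and 65.7 at 40h, 74.1 and 84.7 at 72h, and 29.6 and 26.3 at 120h. The 72h libraries were above and the 120h libraries below all untreated values, with a rise at 72h (log2 fold change 0.33, SE 0.10, adjusted p = 0.0285) and a fall of 2.24-fold at 120h (-1.14, SE 0.10, adjusted p = 1.44e-05). The 72h call was lost without untreated replicate 1 or 2 (adjusted p = 0.145 or 0.0894), 24h replicate 1 or 2 (0.0516 or 0.0515) or 72h replicate 2 (0.184). Scap, the escort protein, had 14.2 and 13.6 RPKM untreated, 13.4 and 14.3 at 24h, 15.5 and 14.9 at 40h, 21.1 and 20.4 at 72h, and 9.88 and 8.79 at 120h. It rose 1.49-fold at 72h (0.55, SE 0.08, adjusted p = 0.000867) and fell 1.49-fold at 120h (-0.53, SE 0.08, adjusted p = 0.000307). In GRCm38 Insig1 lies on chromosome 5 from 28071363 to 28078662 and Scap on chromosome 9 from 110333288 to 110384950. Of the Scap transcript 18.6% overlaps the opposite-strand gene 5830462I19Rik, whose own level was 3.67 and 3.32 RPKM untreated, 6.29 and 6.04 at 72h and 3.07 and 2.55 at 120h.

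The SREBP genes themselves fell at 120h. Srebf1 had 47.9 and 44.1 RPKM untreated, 41.9 and 40.3 at 24h, 39.6 and 38.3 at 40h, 32.4 and 31.5 at 72h, and 28.3 and 23.1 at 120h. Both libraries of every withdrawn group were below both untreated ones, with falls at 72h (log2 fold change -0.51, SE 0.10, adjusted p = 0.00426) and at 120h (-0.82, SE 0.10, adjusted p = 9.47e-05). Srebf2, the form most tied to cholesterol genes, had 72.9 and 75 RPKM untreated, 66.5 and 64.6 at 72h, and 59.1 and 47 at 120h (log2 fold change at 120h -0.48, SE 0.11, adjusted p = 0.00276). With median-of-ratios scaling this Srebf2 fall was not called (-0.05, adjusted p = 0.689), while that of Srebf1 was. Between 72h and 120h both were called lower by 0.31, and these calls were lost without 72h replicate 1 (adjusted p = 0.0894 for Srebf1 and 0.101 for Srebf2), 72h replicate 2 (0.058 and 0.0672) or 120h replicate 2 (0.0647 and 0.0579), with quantile normalization (0.126 and 0.0967) or with only the 2 groups compared (0.116 and 0.137). Median-of-ratios scaling turned both signs, to 0.12 for Srebf1 and 0.13 for Srebf2, with no call (adjusted p = 0.315 and 0.292). Insig2 was called in no comparison, with 5.52 and 6.22 RPKM untreated and 5.42 and 7.08 at 120h, but some alternatives called it higher at 120h. Against 72h these were the fit without 120h replicate 1 (0.43, adjusted p = 0.0106), median-of-ratios scaling (0.64, 0.00253), quantile normalization (0.44, 0.00846) and the replicate block (0.26, 0.0332), and against untreated median-of-ratios scaling (0.46, 0.0129).

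Of the transfer and storage pair, the storage gene rose and the transfer gene fell. Soat1, which esterifies cholesterol for storage in droplets, had 5.16 and 5.39 RPKM untreated, 5.88 and 5.63 at 24h, 7.65 and 6.81 at 40h, 16.3 and 17.1 at 72h, and 25 and 28.3 at 120h. No group overlapped the untreated values, and it rose 3.17-fold at 72h (log2 fold change 1.50, SE 0.09, adjusted p = 6.16e-06) and 5.06-fold at 120h (2.14, SE 0.09, adjusted p = 2.25e-07). The step from 72h to 120h was called too (0.64, SE 0.09, adjusted p = 0.000227). The gene lies on chromosome 1 from 156424525 to 156474331 (GRCm38). Stard4, a soluble sterol carrier, went from 25.1 and 25.6 RPKM untreated to 30.6 and 30.6 at 72h (log2 fold change 0.26, SE 0.15, adjusted p = 0.195) and 17.2 and 11.4 at 120h, where it fell (-0.81, SE 0.15, adjusted p = 0.00116). In the fit without the 120h group its rise at 72h was called (0.26, adjusted p = 0.00253).

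By group mean the LXR and efflux genes were lowest at 72h and highest at 120h. From 40h to 72h 1 of the 4 tested, Abcg1, was called lower. The 40h and 72h libraries overlapped for Abca1 and Mylip. At 72h 3 of the 4 tested fell and 0 rose (22.3% and 21.6% of all tested genes). At 120h 2 rose and 0 fell against untreated (27.5% and 52.7% of all tested genes). All 4 rose between 72h and 120h, as did 26.4% of all tested genes. Abcg1, which exports cholesterol to HDL, had 15.8 and 15.9 RPKM untreated, 14.4 and 13.6 at 24h, 11.6 and 12.8 at 40h, 4.1 and 3.87 at 72h, and 18 and 20.9 at 120h. It fell 3.98-fold at 72h (log2 fold change -1.76, SE 0.09, adjusted p = 2.91e-06) and rose 4.88-fold from 72h to 120h (2.03, SE 0.09, adjusted p = 7.71e-07). At 120h it was 1.23-fold above untreated (0.27, SE 0.09, adjusted p = 0.0211), a call that was lost without untreated replicate 1 (adjusted p = 0.0868), untreated replicate 2 (0.0763) or 120h replicate 2 (0.0846), or with only the 2 groups compared (0.0936).

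Abca1, the pump that loads cholesterol onto apolipoprotein A-I, had 1.56 and 1.57 RPKM untreated, 1.15 and 1.24 at 24h, 1.02 and 1.14 at 40h, 0.54 and 1.06 at 72h, and 7.16 and 15.1 at 120h. The libraries with E2 returned were all below untreated, with no call (at 72h log2 fold change -0.53, SE 0.28, adjusted p = 0.157), and both 120h libraries were above all others, with replicate 2 the higher. In the fit without the 120h group the fall at 72h was called (-0.53, adjusted p = 0.00948). With only the 2 groups compared it was called at 72h (0.0355) and at 40h (-0.30, 0.0342). The rise at 120h was 7.11-fold (2.16, SE 0.28, adjusted p = 0.000125), resting on 12766 and 31517 recovered reads, and 14-fold against 72h (2.69, SE 0.28, adjusted p = 4.23e-05). Mylip had 3.82 and 4.01 RPKM untreated, 3.11 and 3.19 at 24h, 2.26 and 2.43 at 40h, 1.82 and 2.46 at 72h, and 4.03 and 6.65 at 120h. It fell at 72h (-0.65, SE 0.18, adjusted p = 0.0211), a call lost without untreated replicate 1 (0.0774), untreated replicate 2 (0.0989) or 72h replicate 1 (0.112) or with no filter (0.0626), and it rose from 72h to 120h (0.99, SE 0.18, adjusted p = 0.00121). Against untreated its 120h value was not called (0.34, adjusted p = 0.122), though it was without 120h replicate 1 (0.64, 0.00147), after quantile normalization (0.53, 0.0193) and under median-of-ratios scaling (0.71, 0.00877). In GRCm38 Abcg1 lies on chromosome 17 from 31057675 to 31117988, Abca1 on chromosome 4 from 53030787 to 53159895 and Mylip on chromosome 13 from 45389742 to 45412022.

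Of the receptors, Nr1h2 (LXR beta, the widely expressed form) had 42.2 and 44.6 RPKM untreated, 35.7 and 35.9 at 40h, 33.7 and 34.5 at 72h, and 46 and 44.7 at 120h. It fell at 72h (log2 fold change -0.34, SE 0.07, adjusted p = 0.00551, and 0.0576 without untreated replicate 2), rose from 72h to 120h (0.40, SE 0.07, adjusted p = 0.000902) and was not called at 120h against untreated, where its log2 fold change was 0.06. Quantile normalization (0.23, adjusted p = 0.0184) and median-of-ratios scaling (0.50, adjusted p = 0.000338) called it higher there. Nr1h3 (LXR alpha, best known from macrophages and liver) was near the floor of detection throughout. It had 0.053 and 0.078 RPKM untreated, 0.016 and 0.095 at 72h, and 0.206 and 0.315 at 120h, the last from 70 and 125 recovered reads, and it was not tested. The 120h libraries, in which Abca1 and Soat1 were highest, also had the highest summed neutrophil markers (21241 and 21059 RPKM). Their summed monocyte and macrophage markers were the highest too (1492 and 1348 RPKM). The part of either cell type in the rise of Abca1 and Soat1 was not tested.

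**Figure D4:**
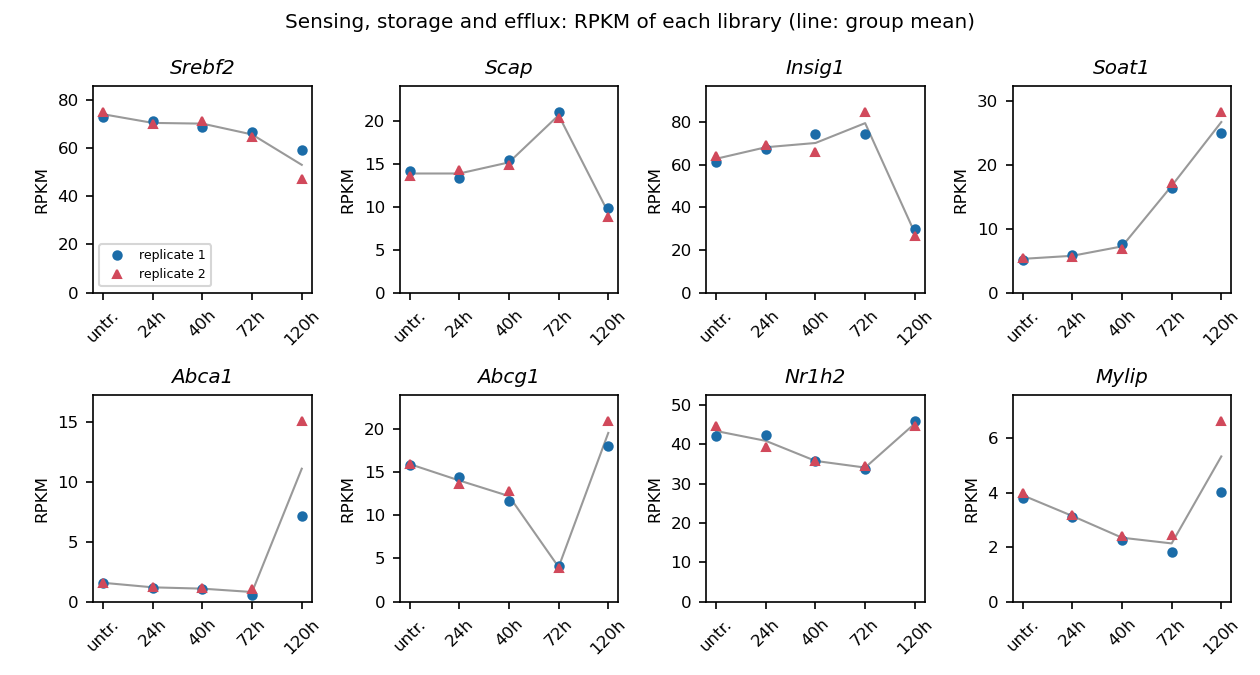
RPKM (vertical axes, from 0) of 8 sensing, storage, LXR and efflux genes in each library by group, with circles for replicate 1, triangles for replicate 2 and lines through the group means. By group mean, Abcg1, Nr1h2 and Mylip are lowest at 72h and back at or above untreated at 120h, Soat1 climbs from 72h on, and Scap and Insig1 peak at 72h.

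Other genes of sterol metabolism are given as lists that were chosen with earlier results of these data known. Of 6 genes listed in or beside the synthesis pathway 4 fell and 0 rose at 120h (52.7% and 27.5% of all tested genes). At 72h 0 were called by limma, where 22.3% of all tested genes fell and 21.6% rose. Among them Acat1, the mitochondrial thiolase, went from 32.5 and 30.2 RPKM untreated to 17.5 and 12 at 120h (log2 fold change -1.06, SE 0.15, adjusted p = 0.000198). The median of the list at 120h was -0.66, against -0.36 over all genes.

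Of 8 genes that cleave SREBP or degrade its partners, 3 fell and 1 rose at 120h (52.7% and 27.5% of all tested genes). Their median at 120h was 0.04. At 72h 3 rose and 1 fell (21.6% and 22.3% of all tested genes). Rnf145, a sterol-responsive ubiquitin ligase, fell from 32.3 and 31.1 RPKM to 16.9 and 17.7 at 72h (log2 fold change -0.84, adjusted p = 0.000634) and 16.5 and 21.2 at 120h (-0.73, adjusted p = 0.000411). Mbtps1, the first of the proteases that cleave SREBP, fell at 120h (-0.71, adjusted p = 2.4e-05), as did Erlin2 (-0.68, adjusted p = 4.01e-05). Erlin1 (0.45, adjusted p = 0.0103) and Mbtps2, the other protease (0.39, adjusted p = 0.015), rose at 72h.

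Uptake and traffic genes went up where the enzymes went down, with 7 higher and 0 lower of 11 tested (13 listed) at 120h. Over all tested genes 27.5% were higher and 52.7% lower. The median of the list was 0.69. Lipa, the lysosomal lipase that frees cholesterol from its esters, had 14 and 13.4 RPKM untreated, 20.8 and 21.1 at 72h, and 122 and 133 at 120h. The 120h rise was 9.34-fold (log2 fold change 3.13, SE 0.08, adjusted p = 2.03e-08). Gramd1b, a sterol transporter at membrane contacts, rose as well (1.37, adjusted p = 5.66e-05). Npc2, which hands cholesterol over inside the lysosome, fell from 76 and 78 to 60 and 55.1 RPKM at 72h (-0.41, adjusted p = 0.00337) and rose to 142 and 146 at 120h (0.90, adjusted p = 1.22e-05). At 72h 4 of the list rose and 1 fell (21.6% and 22.3% of all tested genes).

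Of 10 oxysterol enzymes and further LXR partners or targets only 4 were tested. At 120h 2 rose and 2 fell (27.5% and 52.7% of all tested genes). Apoe, a secreted carrier of cholesterol, went from 1.95 and 1.54 to 5.14 and 5.99 RPKM (log2 fold change 1.26, adjusted p = 0.00031) and Pltp, a phospholipid transfer protein, from 0.569 and 0.599 to 1.65 and 2.01 (0.83, adjusted p = 4.97e-05). Pltp was below RPKM 1 untreated, and its 120h libraries alone were enough to pass the filter. Its call, and its place among the 2 that rose, are thus not independent of the filter. Lpcat3, a lysophospholipid acyltransferase, fell from 60.8 and 61.3 to 38.1 and 27.2 RPKM (-0.90, adjusted p = 0.000455). Ch25h, Cyp27a1 and Cyp7b1, which make or use oxysterols, were at or below 0.117 RPKM in every library.

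The fatty acid genes linked to SREBP-1 fell with the sterol genes. Of 10 tested (11 listed) 9 fell and 1 rose at 120h (52.7% and 27.5% of all tested genes), with a median of -1.33. At 72h 5 fell and 0 rose (22.3% and 21.6% of all tested genes). Fads2, a fatty acid desaturase, went from 135 and 134 RPKM untreated to 69.7 and 71.7 at 72h and 34.7 and 15.6 at 120h (log2 fold change -2.47, SE 0.28, adjusted p = 6.46e-05). Scd2, which makes monounsaturated fatty acids, had -2.19 (SE 0.19, adjusted p = 1.12e-05) and Fads1 -1.77 (SE 0.13, adjusted p = 4.65e-06). Acss2, which makes acetyl-CoA from acetate, fell from 3.4 and 3.54 to 1.61 and 1.62 RPKM at 72h (-0.77, adjusted p = 0.000233) and rose to 5.19 and 4.38 at 120h (0.37, adjusted p = 0.00446).

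Sequence shared with other genes touches 6 of the 30 members at 10% or more of the transcript, by exon overlap or by 50-base windows that match another gene exactly. Fdps shared 82% of its windows with Gm43738, Gm3571 and Gm5873, and Acat2 shared 45.9% with Acat3 and Tcp1. Acat3 went from 12.2 and 10.3 to 3.55 and 1.49 RPKM at 120h (log2 fold change -1.86) and Tcp1 from 303 and 286 to 90.8 and 58.2 (-2.0), so the genes that share sequence with Acat2 were lower too. Idi1 shared 30.5%, and Gm13502, the first of its copies, had a log2 fold change of -0.8 at 120h. Hmgcs1 overlaps Gm48342 on the opposite strand over 17.2% of its transcript. Values of these members and of Fdft1 and Scap are uncertain as values of single genes, and the other 24 members were below 10%.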

How the data were processed

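The authors deposited RPKM for 79535 Ensembl transcripts per library, per the file headers. The submitters' processing notes name STAR and GRCm38 without a version, and neither the counting program nor its annotation, filter or strand setting is stated there. Identifiers of 77720 transcripts (97.7%) were found in GENCODE M21, and for each gene 1 transcript was kept by annotation alone (a coding one if present, by APPRIS rank, CCDS membership, then length). Multiplying RPKM by transcript length gave whole reads in 100% of 1917 to 2221 values per library (tolerance 0.1 reads).

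Groups follow the labels. The scale was log2(RPKM + 1), so changes of low genes are understated. A gene was tested if 2 or more libraries reached RPKM 1, which left 13004. The model was limma 3.58.1 (R 4.3.3; lmFit, then contrasts.fit and eBayes with a mean trend) on all 10 libraries, with group as its term and a shared spread (residual df 5, prior df 3.04). All 6 comparisons were 2-sided, with BH adjustment over all tested genes. Alternatives were pseudocount 0.1, no filter, median-of-ratios scaling, quantile normalization, the highest coding transcript, voom on recovered reads, only the compared groups, a replicate block, leaving out each library, and, added after seeing the data, leaving out the 120h group. The pipeline was tested on simulated data.

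The members, lists and the rule for named list genes (per list up to 3 called genes by size of change at 120h and at 72h, plus those called in opposite directions) were chosen with earlier results of these data known. Some genes that this rule names are not reported here.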

Additional observations from a re-analysis of the deposited data

Results flagged for a closer look

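In 3 members the changes against untreated at 72h with E2 returned and at 120h without it had opposite signs. Both changes were called, by limma with BH adjustment. The 3 were picked by those calls, and 120h against 72h is the difference of the same 2 changes. Its call therefore follows largely from the choice and is no separate support. The share of all tested genes with this pattern was not counted. Scap had log2 fold changes of 0.55 at 72h and -0.53 at 120h against untreated, and the difference, 120h against 72h, was -1.07 (SE 0.08, adjusted p = 6.89e-06). Insig1 had 0.33 and -1.14, and the difference was -1.47 (SE 0.10, adjusted p = 5.08e-06). Abcg1 had -1.76 and 0.27, and the difference was 2.03 (SE 0.09, adjusted p = 7.71e-07). In each of the 3, a change against untreated was less firm. The Scap fall at 120h lost its call under median-of-ratios scaling (-0.12, adjusted p = 0.179). The Insig1 rise at 72h lost its call in some fits that left out a library (0.24 to 0.37). The Abcg1 rise at 120h did so too (0.17 to 0.28), and with only untreated and 120h compared (0.27, adjusted p = 0.0936). The difference, 120h against 72h, kept its call and sign for all 3 in every alternative that held both groups. The 2 groups differ both in the length of withdrawal and in the return of E2, which cannot be told apart in this comparison.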

How the results depend on the processing

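Counts of members called kept within 1.5 times of those in the report in most alternatives. Shares over all genes of each fit moved too. Without the 120h group 5.2% were higher and 9.74% lower at 40h, 30% higher at 72h, and 24.7% lower from 40h to 72h. With only the 2 groups compared 5.61% were higher and 9.68% lower at 40h, and 26.4% higher at 72h. With the highest coding transcript 0.873% were higher at 40h. With no filter 12.1% were lower at 72h and 6.73% from 40h to 72h. Median-of-ratios scaling gave 39.4% higher at 120h. At 40h against untreated 1 member was higher and 0 lower, with 9 and 4 without the 120h group, 8 and 4 with only the 2 groups compared, 2 higher with the highest coding transcript and 2 higher with voom, and a range of 0 to 9 higher and 0 to 4 lower with 1 library left out. At 72h against untreated 5 were higher and 8 lower, with 9 higher with only the 2 groups compared or without the 120h group, 5 lower with no filter, and 4 to 9 higher and 3 to 12 lower with 1 library left out. At 120h against untreated 4 were higher and 18 lower, with 10 higher under median-of-ratios scaling, and 3 to 5 higher and 18 lower with 1 library left out. From 40h to 72h 3 were higher and 6 lower, with 3 lower with no filter, 13 lower without the 120h group, and 2 to 4 higher and 2 to 13 lower with 1 library left out. From 72h to 120h 6 were higher and 19 lower, with 5 to 6 and 16 to 22 with 1 library left out.

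Median-of-ratios scaling turned the sign of 4 results where at least 1 fit made a call, Fdft1 at 120h against untreated (0.35, called) and, from 72h to 120h, Sc5d (0.33, called), Srebf1 (0.12) and Srebf2 (0.13). Over single members and comparisons 3032 values stayed on their side of the threshold, among them uncalled values that changed sign, while 85 lost the call, 127 gained it and those 4 turned. With a replicate block the counts against untreated were those without it (4 higher and 18 lower at 120h, 5 and 8 at 72h), 7 were lower from 40h to 72h, with Srebf1 gained (-0.28, adjusted p = 0.0346), and 7 higher from 72h to 120h, with Insig2 gained (0.26, adjusted p = 0.0332). The libraries share a number and no stated pairing, and the deviations of same-numbered libraries correlated at 0.03 to 0.64 between groups.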
